A study of Mus musculus with 6 samples.

Results

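The hairpins miR-872, miR-664, miR-700 and miR-5615 were examined through both of their mature arms, which gives 8 miRNA names. All 8 are among the 2009 names of the deposited table, and all 8 are among the 409 names kept after a filter on low values. The 4 hairpins were chosen by their 5p to 3p ratio, which had the strongest nominal shift between ischemia-reperfusion (I/R) and sham hearts out of 94 hairpins with both arms kept. Levels and ratios of these hearts therefore chose the members, and they are given as a description without a test.

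The libraries came from 3 I/R and 3 sham hearts of male mice, numbered as biological replicates 1 to 3 in each group. All hearts were isolated and perfused on a Langendorff system, which feeds the coronary vessels through the aorta. I/R hearts were stopped with cardioplegia for 30 min and then reperfused for 1 h, while sham hearts were perfused and kept beating. The sources used here give no strain or age. An isolated heart has no circulating blood, and each library holds the RNA of whole heart tissue, in which fewer cells of a type and less RNA per cell cannot be told apart.

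A miRNA gene is transcribed as a long RNA that folds into a hairpin. Drosha and Dicer cut the hairpin to a short duplex of a 5p and a 3p strand, and an Argonaute protein keeps one strand as the guide and usually discards the other. The base at the 5′ end of a strand and the stability of its end of the duplex influence which strand is kept, with U or A favoured at the first position. The 2 arms of a hairpin have different seeds, the bases 2 to 8 that pair with target mRNAs, so a shift in arm balance would change which targets a hairpin can address.

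The mature sequences of the 8 arms show that the members do not resemble each other. Sequences are from RefSeq (GRCm38.p6), 5′ to 3′, with the seed in capitals.
mmu-miR-872-5p: aAGGUUACuuguuaguucagg
mmu-miR-872-3p: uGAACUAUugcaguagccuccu
mmu-miR-664-5p: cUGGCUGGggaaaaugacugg
mmu-miR-664-3p: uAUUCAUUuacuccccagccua
mmu-miR-700-5p: uAAGGCUCcuuccugugcuugc
mmu-miR-700-3p: cACGCGGGaaccgaguccacc
mmu-miR-5615-5p: cUUGGUUGuuuucugagacaga
mmu-miR-5615-3p: uGUCUCAGaaaacaaccaagga
The 8 seeds are all different. Of the 1679 mouse mature names with a sequence in the RefSeq table, 0 others share a seed with any of the 8, so each seed belongs to 1 name among these 1679. The series lists 1978 mouse names, and those without a RefSeq sequence were not compared. The arms are 21 or 22 nt long, and their GC content runs from 38.1% in miR-872-5p to 71.4% in miR-700-3p.

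The hairpins sit in 4 different kinds of genomic surroundings, and the sequences of Mir872, Mir664 and both Mir5615 hairpins are printed to show how their arms are arranged, with both arms in capitals and the loop and flanks in lower case.
Mir872: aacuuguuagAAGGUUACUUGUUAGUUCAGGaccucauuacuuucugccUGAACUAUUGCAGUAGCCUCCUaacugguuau
Mir664: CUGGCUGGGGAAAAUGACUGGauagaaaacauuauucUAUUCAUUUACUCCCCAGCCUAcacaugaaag
Mir5615-1: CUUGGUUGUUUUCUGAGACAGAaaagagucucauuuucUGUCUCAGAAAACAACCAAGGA
Mir5615-2: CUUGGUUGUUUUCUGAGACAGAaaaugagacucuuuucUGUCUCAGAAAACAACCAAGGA
Mir872 lies at chr4:94665157-94665237 on the plus strand (GRCm38), in an intron of Ift74, which encodes a protein of intraflagellar transport in cilia, and on the same strand as that gene. Its arms overlap no exon of another gene in GENCODE.

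Mir664 lies at chr1:185242975-185243043 on the plus strand, in an intron of Rab3gap2, which encodes a subunit of the Rab3 GTPase-activating complex. Of the 69 bases of the hairpin, 64 also belong to Snora36b, an H/ACA small nucleolar RNA annotated on the same strand at chr1:185242907-185243038. Small nucleolar RNAs of this class guide pseudouridylation of other RNAs, so both arms of miR-664 are also stretches of a second annotated small RNA. Among 72 hairpins with both arms kept and both arm sequences in RefSeq, 2 had an arm inside a snoRNA on the same strand, miR-664 and miR-3068.

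The arms of miR-700 lie on the minus strand of chromosome 4, on either side of a splice site of Rcan3, a gene of the family of calcineurin regulators. The 3p arm (chr4:135416561-135416581) lies within the coding part of exon 5, the last of 5 exons of the transcript Rcan3-201. The 5p arm (chr4:135416601-135416622) lies in the intron before it, and its nearest base is 3 bases from the first base of that exon. A read of miR-700-3p therefore has the same sequence as a fragment of Rcan3 mRNA, while a read of miR-700-5p does not match the spliced mRNA at this place. An arm within a coding exon on the same strand was found for 2 of the 72 hairpins, miR-700 and miR-3071.

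miR-5615 has hairpins annotated on both strands of 1 place on chromosome 10. Mir5615-1 runs on the minus strand at chr10:81104614-81104673 and Mir5615-2 on the plus strand at chr10:81104616-81104675, so that 58 bases are shared. The nearest protein-coding gene, Map2k2, a kinase of the MAPK cascade, begins 1240 bases away. The hairpin is an inverted repeat, as the printed sequences show: the longest stretch of the 5p arm that is the exact reverse complement of the 3p arm is 20 nt, against a median of 7 nt over the 72 hairpins and a maximum of 14 nt in the others. Each arm of miR-5615 is thus nearly the antisense of the other. Whether the counting used strand is not given in the sources used here, so reads of the 2 arms cannot be told apart if it did not, and the values of both are uncertain. A miRNA gene annotated on the opposite strand was found for 9 of the 72 hairpins, miR-136 and miR-3071 among them. Over the 6 libraries miR-136 averaged 4.79 RPM for 5p and 6.90 RPM for 3p, and miR-3071 averaged 7.18 and 4.49 RPM. miR-486a and miR-486b, outside these 72 hairpins, had mean log2 ratios (5p over 3p) of -0.168 and 0.175. Their scarcer arms averaged 12610.7 and 12617.3 reads per library. miR-1b-5p and miR-1a-3p had 187971 and 375821 RPM in I/R heart 1, and 191757 and 382877 RPM in sham heart 1. The strands of these miRNAs were not read from GENCODE. What all these values say about strand in the counting, and so about the arms of miR-5615, was not tested.

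The libraries held 7874103 to 9197869 reads on listed names, and levels are given as reads per 1000000 reads on listed names (RPM), at which 1 read is worth 0.109 to 0.127 RPM. Heart muscle markers (miR-1a-3p, miR-133a-3p, miR-208a-3p and miR-499-5p) summed to 357828 to 383230 RPM in I/R and 385458 to 389856 RPM in sham hearts. Most of this sum was miR-1a-3p, at 351573 to 375821 RPM in I/R and 378281 to 382877 RPM in sham hearts. The log2 differences, I/R minus sham, were -0.059 for miR-1a-3p, -0.36 for miR-133a-3p, -0.10 for miR-208a-3p and 0.018 for miR-499-5p. The red blood cell markers miR-451a and miR-144-3p summed to 1.52 to 5.26 RPM in I/R and 3.33 to 6.85 RPM in sham hearts, and leukocyte markers (miR-142a-3p, miR-223-3p and miR-150-5p) to 75.9 to 78.5 RPM and 67.8 to 91.5 RPM. The brain miRNA miR-124-3p was at 0 in all 6 libraries. No list separated the groups except the heart muscle one and that of the liver miRNA miR-122-5p (3.67 to 4.32 RPM in I/R and 3.05 to 3.58 RPM in sham hearts), and their part in the values below was not tested.

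The 8 arms covered a wide range of levels, all far below the muscle miRNAs. Ordered by the mean over 6 libraries, mmu-miR-872-5p came first with 76.8 RPM and rank 131 of the 409 kept names, followed by mmu-miR-700-3p with 15.5 RPM (rank 201) and mmu-miR-664-5p with 6.36 RPM (rank 263). Below these came miR-664-3p with 3.60 RPM (rank 294), miR-872-3p with 2.68 RPM (rank 323), miR-700-5p with 1.77 RPM (rank 354), miR-5615-5p with 1.36 RPM (rank 382) and miR-5615-3p with 1.01 RPM (rank 408). The last of these passed the filter, a mean of at least 1 RPM, by a narrow margin. It passed through the sham hearts, with a mean of 1.28 RPM there against 0.738 RPM in I/R hearts. miR-872-5p and miR-700-3p stood apart from all other arms in every library. From miR-664-5p downward the ranges over the 6 libraries overlapped between neighbours in the order.

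**Figure D1:**
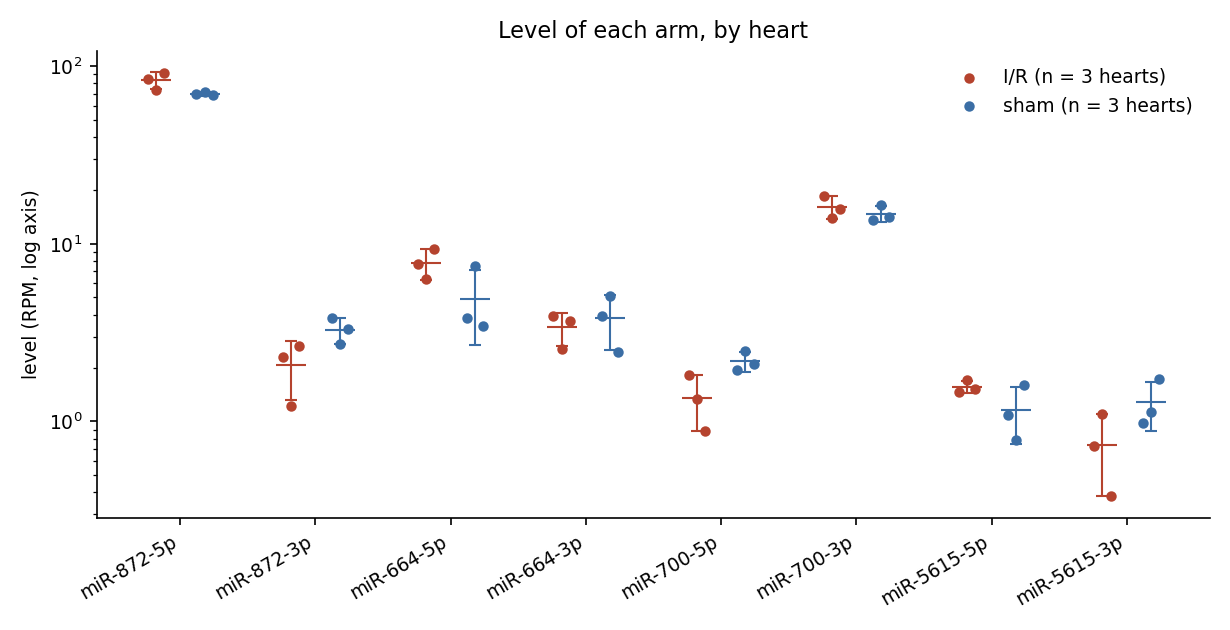
Level of each of the 8 arms in RPM on a log axis, with 1 point per heart, I/R in red and sham in blue, and the mean ± SD (n = 3 hearts each). miR-872-5p lies between 68.9 and 91.8 RPM and miR-700-3p between 13.7 and 18.7 RPM, while the 6 other arms lie below 10 RPM.

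miR-872 was a hairpin with a strongly dominant 5p arm in every heart. miR-872-5p had 85.3, 73.4 and 91.8 RPM in I/R hearts 1 to 3, against 69.4, 71.9 and 68.9 RPM in sham hearts 1 to 3. The I/R hearts all lay above the sham hearts, by a small distance for I/R heart 2. The level averaged 83.5 ± 9.36 RPM in I/R and 70.0 ± 1.61 RPM in sham hearts (SD, n = 3 each), a log2 difference of 0.24 (SE 0.13) on the log2(RPM + 1) scale. The median over all 409 names was 0.10, and with median-ratio scaling, which moves that median to 0.0054, the difference of miR-872-5p was 0.14.

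The minor arm of this hairpin went the other way. miR-872-3p had 2.32, 1.22 and 2.67 RPM in I/R hearts, against 3.81, 2.71 and 3.33 RPM in sham hearts. These levels were 19, 10 and 21 reads in I/R and 35, 24 and 27 reads in sham hearts. The highest I/R heart and the lowest sham heart nearly touched, at 2.67 and 2.71 RPM. The means were 2.07 ± 0.754 and 3.28 ± 0.548 RPM in I/R and sham hearts (SD, n = 3 each), a log2 difference of -0.51 (SE 0.24) on the log2(RPM + 1) scale. It was -0.29 without I/R heart 2 and -0.14 with a pseudocount of 10 RPM.

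Expressed as a share of the reads of both arms, the 5p arm of miR-872 held 97.4%, 98.4% and 97.2% in I/R hearts, against 94.8%, 96.4% and 95.4% in sham hearts. The groups did not overlap, but the 95% exact binomial intervals of single hearts did, for example 95.7% to 98.2% in I/R heart 3 and 94.6% to 97.7% in sham heart 2. Summed over hearts there were 2022 reads of the 5p arm and 50 of the 3p arm in I/R, and 1832 and 86 in sham hearts, which is 40.4 and 21.3 reads of the 5p arm for each read of the 3p arm. The log2 ratio of 5p to 3p, computed with 1 RPM added to each arm, was 4.81 ± 0.22 in I/R and 4.06 ± 0.22 in sham hearts (SD, n = 3 each), a difference of 0.75 (SE 0.18), or 0.36 with 10 RPM added. The minor arm enters this ratio with 10 to 35 reads per heart. Intervals on read shares cover counting error within 1 heart only and leave out the spread between hearts. No source used here mentions molecular identifiers, so reads copied from 1 molecule could not be told apart and the intervals may be too narrow.

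miR-664 was close to even between its arms in sham hearts and leaned to 5p in I/R hearts. miR-664-5p had 7.69, 6.36 and 9.40 RPM in I/R hearts, against 3.81, 7.46 and 3.46 RPM in sham hearts. The groups overlapped because sham heart 2 lay above I/R heart 2. The level averaged 7.81 ± 1.52 RPM in I/R and 4.91 ± 2.22 RPM in sham hearts (SD, n = 3 each), a log2 difference of 0.63 (SE 0.26), or 0.26 with a pseudocount of 10 RPM.

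The 3p arm of miR-664 showed no separation of the groups. miR-664-3p had 3.90, 2.57 and 3.68 RPM in I/R hearts, against 3.91, 5.09 and 2.47 RPM in sham hearts. The means were 3.39 ± 0.716 RPM in I/R and 3.82 ± 1.31 RPM in sham hearts (SD, n = 3 each), and the sign of the log2 difference of -0.11 (SE 0.25) turned when sham heart 2 or I/R heart 2 was left out (0.073 and 0.028). It was -0.33 without sham heart 3, -0.20 without I/R heart 1, -0.19 with median-ratio scaling and -0.043 with a pseudocount of 10 RPM. Sham heart 2 had the highest level of both arms among sham hearts, and the log2 ratio varied less between sham hearts than the log2 level of either arm did.

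The 5p share of miR-664 was 66.3%, 71.2% and 71.8% in I/R hearts, against 49.3%, 59.5% and 58.3% in sham hearts. No sham heart reached the lowest I/R heart, although the intervals were wide, from 55.9% to 75.7% in I/R heart 1 and from 49.7% to 68.7% in sham heart 2. The summed reads were 189 for 5p and 82 for 3p in I/R hearts, and 129 and 101 in sham hearts. The log2 ratio was 1.01 ± 0.17 in I/R and 0.27 ± 0.27 in sham hearts (SD, n = 3 each), a difference of 0.74 (SE 0.18), or 0.31 with 10 RPM added. How many of these reads belong to Snora36b fragments was not tested.

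miR-700 was dominated by its 3p arm, the one within the coding exon of Rcan3. miR-700-3p had 18.7, 13.9 and 15.7 RPM in I/R hearts, against 13.7, 16.6 and 14.1 RPM in sham hearts. The groups overlapped widely, with means of 16.1 ± 2.39 RPM in I/R and 14.8 ± 1.59 RPM in sham hearts (SD, n = 3 each) and a log2 difference of 0.11 (SE 0.16). That value was 0.0067 without I/R heart 1, 0.21 without I/R heart 2, 0.062 without sham heart 1, 0.19 without sham heart 2, 0.015 with median-ratio scaling, 0.045 with totals taken without the 10 most abundant names and 0.073 with a pseudocount of 10 RPM, so its size is not settled. Whether some of these reads are fragments of the Rcan3 mRNA was not tested.

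The intronic 5p arm carried most of the difference in ratio. miR-700-5p had 1.83, 1.35 and 0.889 RPM in I/R hearts, against 1.96, 2.49 and 2.10 RPM in sham hearts. All I/R hearts lay below all sham hearts, at 15, 11 and 7 reads in I/R and 18, 22 and 17 reads in sham hearts. The means were 1.35 ± 0.471 RPM in I/R and 2.18 ± 0.274 RPM in sham hearts (SD, n = 3 each), a log2 difference of -0.45 (SE 0.22), or -0.10 with a pseudocount of 10 RPM and -0.69 with 0.1 RPM.

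The 5p share of miR-700 was 8.93%, 8.80% and 5.34% in I/R hearts, against 12.5%, 13.0% and 13.0% in sham hearts. Sham hearts lay close together, while I/R heart 3 was lower than the other I/R hearts. The interval of I/R heart 1, 5.08% to 14.3%, held all 3 sham shares. The log2 ratio was -2.87 ± 0.25 in I/R and -2.31 ± 0.027 in sham hearts (SD, n = 3 each), a difference of -0.56 (SE 0.15) toward the 3p arm, the only one of the 4 with this direction. It was -0.17 with 10 RPM added.

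miR-5615 was the scarcest of the 4 hairpins. miR-5615-5p had 1.46, 1.71 and 1.52 RPM in I/R hearts, against 1.09, 0.791 and 1.61 RPM in sham hearts, and the groups overlapped through sham heart 3. The means were 1.57 ± 0.129 RPM in I/R and 1.16 ± 0.412 RPM in sham hearts (SD, n = 3 each), a log2 difference of 0.26 (SE 0.22). It was 0.14 without sham heart 2, 0.41 without sham heart 3, 0.052 with a pseudocount of 10 RPM and 0.45 with 0.1 RPM.

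The level of miR-5615-3p was 0.732, 1.10 and 0.381 RPM in I/R hearts, against 0.978, 1.13 and 1.73 RPM in sham hearts. In reads this is 6, 9 and 3 in I/R hearts and 9, 10 and 14 in sham hearts, with I/R heart 2 above sham heart 1. The means were 0.738 ± 0.360 RPM in I/R and 1.28 ± 0.397 RPM in sham hearts (SD, n = 3 each), a log2 difference of -0.40 (SE 0.26) for miR-5615-3p. It was -0.24 without I/R heart 3, -0.26 without sham heart 3, -0.071 with a pseudocount of 10 RPM and -0.78 with 0.1 RPM.

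The 5p share of miR-5615 was 66.7%, 60.9% and 80.0% in I/R hearts, against 52.6%, 41.2% and 48.1% in sham hearts. The groups did not overlap, but each share rests on 15 to 27 reads. The intervals ran from 38.5% to 80.3% in I/R heart 2 and from 28.9% to 75.6% in sham heart 1. The log2 ratio was 0.58 ± 0.26 in I/R and -0.080 ± 0.16 in sham hearts (SD, n = 3 each), a difference of 0.66 (SE 0.18). With 10 RPM added to each arm the difference was 0.12, and with 0.1 RPM it was 1.23. The uncertainty about strand given above for the antisense arms holds for this ratio too.

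**Figure D2:**
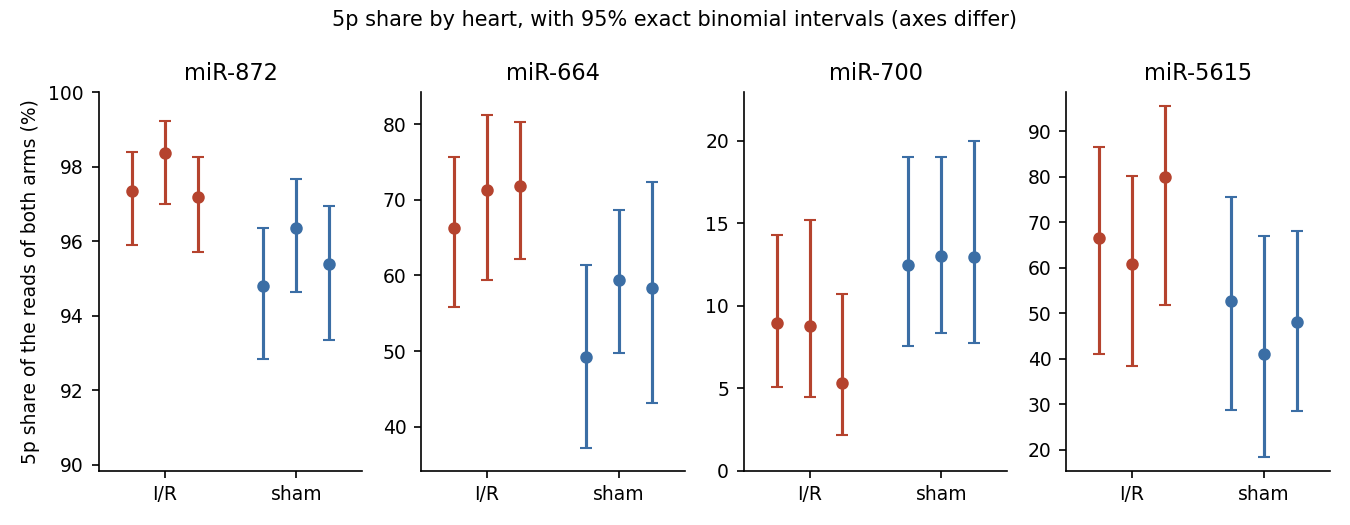
Share of the 5p arm in the reads of both arms, in percent, with 1 point per heart (I/R in red, sham in blue) and 95% exact binomial intervals for counting error, on axes that differ between the 4 panels. The I/R points lie above the sham points for miR-872, miR-664 and miR-5615 and below them for miR-700, and intervals of I/R and sham hearts overlap in each panel.

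The summed level of both arms separated the groups for none of the 4 hairpins. For miR-872 it averaged 85.6 ± 10.1 RPM in I/R and 73.3 ± 1.19 RPM in sham hearts, and the groups met at 74.6 RPM, the value of I/R heart 2 and of sham heart 2. For miR-664 it averaged 11.2 ± 2.10 RPM in I/R and 8.73 ± 3.42 RPM in sham hearts, for miR-700 17.5 ± 2.70 and 17.0 ± 1.86 RPM, and for miR-5615 2.30 ± 0.463 and 2.44 ± 0.777 RPM (SD, n = 3 each). The sum of miR-700 was thus nearly the same in both groups while its 5p share was lower in I/R hearts. Pearson's correlation between the log2 levels of the 2 arms over the 6 libraries, a description that shares library and depth, was 0.45 for miR-664, 0.087 for miR-700, -0.058 for miR-5615 and -0.22 for miR-872.

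Against all hairpins, the ratio differences were as follows. In limma, with Benjamini-Hochberg adjustment over 94 hairpins, 0 passed an adjusted p of 0.05 (0% called), the 4 described here included, and 6 had an unadjusted p under 0.05 (6.38%). The groups did not overlap in the ratio for 11 of the 94 hairpins (11.7%), of which 5 leaned toward 5p in I/R hearts (5.32%) and 6 toward 3p (6.38%). All 4 hairpins described here are among the 11, which follows from how they were chosen. The median difference over the 94 hairpins was -0.056 on the log2 scale, with 39 positive and 55 negative, and the other 90 ran from -0.58 to 0.59.

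The order of choice was by p. The last hairpin taken was miR-5615 with 0.66 (SE 0.18), and the first left out were miR-434 with a difference of 0.44 (SE 0.14) and miR-379 with 0.42 (SE 0.16), both of the imprinted Dlk1-Dio3 cluster. The log2 ratio of miR-434 was 5.88 ± 0.092 in I/R and 5.44 ± 0.14 in sham hearts, and that of miR-379 was 6.69 ± 0.23 and 6.27 ± 0.10 (SD, n = 3 each). The scarcer arm of these hairpins also had few reads, with means of 16.7 and 8.67 reads per library.

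**Figure D3:**
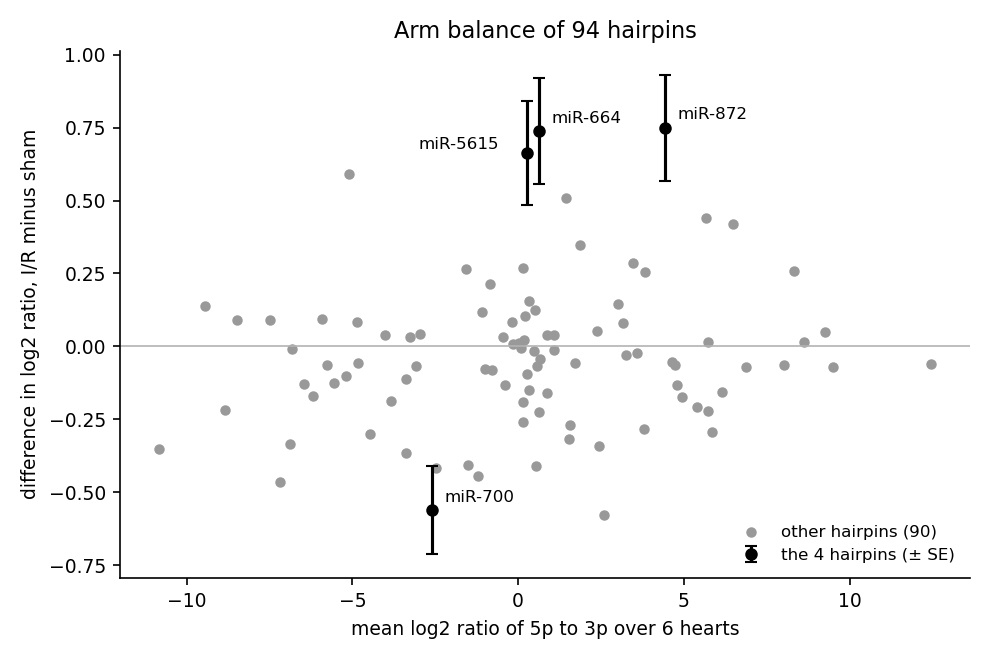
Difference in the log2 ratio of 5p to 3p, I/R minus sham, against the mean log2 ratio over 6 hearts, for 94 hairpins with both arms kept, with the 4 hairpins in black with their limma SE. miR-872, miR-664 and miR-5615 lie at 0.66 to 0.75, above the other 90 hairpins (-0.58 to 0.59), and miR-700 lies at -0.56, within their range.

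At the level of single arms, 0 of 409 names passed in limma (0% called) and 30 had an unadjusted p under 0.05 (7.33%). edgeR on recovered reads called 0 names and DESeq2 2, and limma with the replicate number as a block called 4, with none of the 8 arms among them. Among the 8 arms the groups did not overlap for miR-872-5p on the higher side and for miR-872-3p and miR-700-5p on the lower side. Over all kept names the groups did not overlap for 15.2%, with 11.2% higher and 3.91% lower in I/R hearts. Since the same libraries chose the members, nothing is read from this count of 3 of 8.

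The reads behind the scarcer arm were few in all 4 hairpins. The scarcer arm averaged 22.7 reads per library for miR-872, 30.5 for miR-664, 15.0 for miR-700 and 8.50 for miR-5615, the lowest of the 94 hairpins, over which the median was 62.2. The SD between hearts of a group was 0.22 for miR-872, 0.22 for miR-664, 0.18 for miR-700 and 0.22 for miR-5615 on the log2 ratio. Counting of reads alone would give an SD of 0.23, 0.27, 0.27 and 0.34 for these hairpins, so the hearts of a group differed by less than counting error in all 4. The same held for 26 of the 94 hairpins. A small spread between hearts lowers the p by which the hairpins were picked, so this is part of the choice and no separate finding.

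The relation of depth to the size of the difference can be seen in the other hairpins. Of the 94, 42 had a scarcer arm under 40 reads per library, and their median spread within a group was 0.28, against 0.15 in the 40 hairpins with at least 100 reads. The median size of the difference between I/R and sham hearts was 0.14 and 0.13 in these sets.

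**Figure D4:**
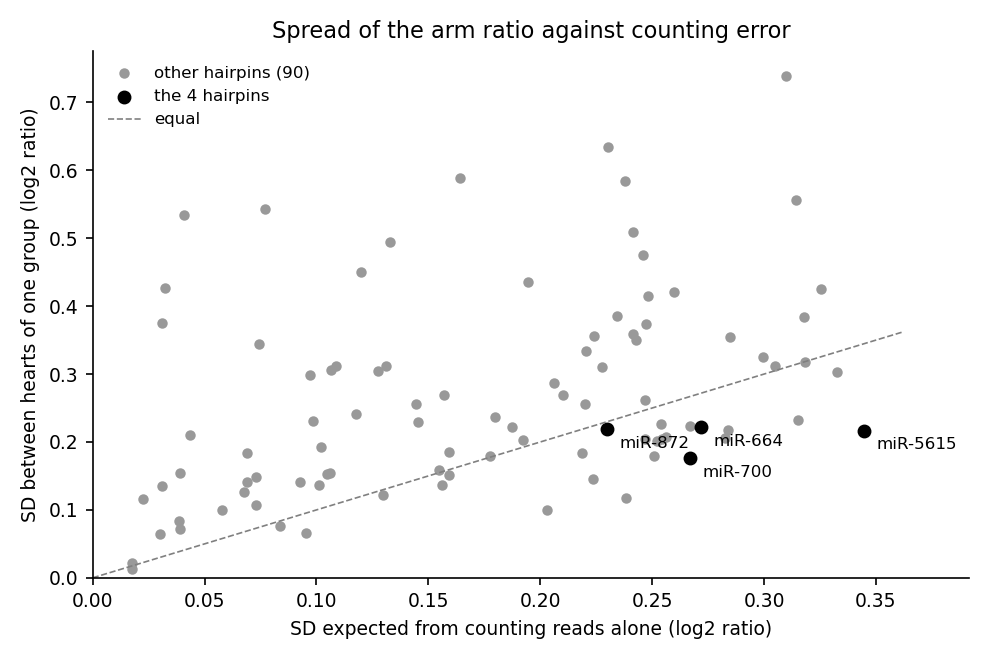
SD of the log2 ratio between hearts of 1 group, pooled over I/R and sham, against the SD that counting of reads alone would give, for 94 hairpins, with the dashed line marking equality. The 4 hairpins, in black, lie below the line at 0.18 to 0.22 on the vertical axis, where 26 of the 94 hairpins lie.

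The mean arm balance over all 6 hearts, which the choice did not use, placed the 4 hairpins at very different points. Over the 6 libraries the mean log2 ratio was 4.43 for miR-872, 0.64 for miR-664, 0.25 for miR-5615 and -2.59 for miR-700. Among the 94 hairpins 56 favoured the 5p and 38 the 3p arm, and 27 had arms within a 2-fold ratio, miR-664 and miR-5615 among them. For miR-5615 the near-even balance is subject to the uncertainty about strand given above. The median distance from an even ratio was 3.20 on the log2 scale, so miR-872 was more one-sided and miR-700 less one-sided than the median hairpin.

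The first base of the arms did not point to the dominant arm in 3 of the 4 hairpins. In miR-700 the dominant 3p arm starts with C and the minor 5p arm with U, and in miR-664 and miR-5615 the 5p arm, the more abundant by the mean over 6 hearts, starts with C and the 3p arm with U. For miR-5615 this order holds in I/R hearts (38 reads of 5p and 18 of 3p) but not in sham hearts (30 and 33). The uncertainty about strand given above holds for the arm order of miR-5615 too. In miR-872 both arms start with a favoured base, A for 5p and U for 3p. Of the 38 hairpins in which 1 arm started with U or A and the other with C or G, the arm with U or A was the more abundant in 24 (63.2%), and these 3 hairpins are among the exceptions.

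A set of 10 hairpins often reported with both arms gave reference points, 9 of them with 65.8 to 4123 reads per library in the scarcer arm and miR-17 with 9. All 10 had both arms kept, and the groups did not overlap in the ratio for miR-28a and miR-378a, both toward 3p in I/R hearts. The log2 ratio of miR-28a was 1.36 ± 0.095 in I/R and 1.68 ± 0.18 in sham hearts, a difference of -0.32 (SE 0.15), and that of miR-378a, encoded in an intron of Ppargc1b, was -6.53 ± 0.063 and -6.40 ± 0.065, a difference of -0.13 (SE 0.099) (SD, n = 3 each). For the other 8 the differences ran from -0.46 for miR-151 to 0.29 for miR-17, and 0 of the 10 passed in limma. miR-1839, which like miR-664 is known as a miRNA from a small nucleolar RNA, had 259 ± 29.1 RPM in I/R and 215 ± 7.06 RPM in sham hearts for its 5p arm, while its 3p arm, at 0.541 ± 0.326 and 0.919 ± 0.594 RPM, was too scarce to be kept (SD, n = 3 each).

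The profiles most like those of the members were found by Pearson's correlation over the 6 libraries, which share depth and group, so they are given as a description. Each value is among the highest over all other kept names, so a high value over 6 libraries comes in part from the search. For the level of miR-872-5p the most alike names were miR-185-5p (0.99) and miR-1839-5p (0.96), and for miR-872-3p they were miR-6966-3p (0.89) and miR-3474 (0.89). For miR-664-5p they were miR-322-3p (0.98) and miR-542-3p (0.95), from hairpins of 1 cluster, and for miR-664-3p they were miR-378a-5p (0.95) and miR-193a-5p (0.92). For miR-700-5p they were miR-1a-3p (0.92) and miR-1b-5p (0.91), and for miR-700-3p they were miR-28c (0.94) and miR-425-3p (0.94). The level of miR-1b-5p closely followed that of miR-1a-3p, with 187971 and 375821 RPM in I/R heart 1 and 175836 and 351573 RPM in I/R heart 3. These 2 are thus not separate likenesses. For miR-5615-5p they were miR-122b-3p (0.90) and miR-125b-5p (0.89), and for miR-5615-3p they were miR-340-5p (0.99) and miR-208a-3p (0.97).

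For the ratio of the arms, miR-872 was most like miR-434 (0.97) and miR-664 (0.92), and miR-664 most like miR-379 (0.93) and miR-872 (0.92). miR-5615 was most like miR-379 (0.82) and miR-664 (0.75). miR-700 was most like miR-143 (0.88) and miR-378a (0.86), which also leaned further toward 3p in I/R hearts. Hairpins chosen for a difference between the same groups resemble each other by that choice. These correlations too were the highest over all other hairpins, so they come in part from the search.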

How the data were processed

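The authors' table holds a signal for each mature miRNA in each library, called FPKM in its name. The submitters' processing notes name fastp 0.23.0, bcl2fastq 2.19.1.403 and mm10; aligner, strand setting and handling of multi-mapping reads: not given in the sources used here. Per the labels' protocols the library kits were for poly(A) mRNA. In the deposited signal, all columns summed to 1 total, and division by the smallest value recovered whole reads for 100% of values (tolerance 0.01 reads). RPM is the signal times a constant 23 nt divided by 1000.

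Names were kept if they averaged 1 RPM or more and lay above 0 in 3 or more libraries. limma 3.58.1 (R 4.3.3, variance trend) was fitted to log2(RPM + 1) of 409 names and to the log2 ratio of 5p to 3p in 94 hairpins, two-sided, with Benjamini-Hochberg adjustment. Log2 differences and SEs are from these fits, which understate changes of low values. edgeR 4.0.16 and DESeq2 1.42.0 on recovered reads were alternatives. The fits were run on simulated data with changes larger than the 4 ratio differences described here. That run does not show whether differences of this size would be found. The SD from counting is the Poisson error of both arms carried to the log2 ratio.

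Members, lists and the rule for named miRNAs (the members, the 2 hairpins next in p, the 2 most correlated profiles per member, seed sharers, 10 hairpins with both arms, miR-1839) were chosen with earlier results of these data known. The main fits did not pair hearts, and replicate numbers entered only an alternative fit, as a block. Any pairing was read from the data alone. Deviations from group means correlated at 0.14, 0.28 and 0.16 for equal numbers and at -0.19 to 0.069 for unequal ones, which does not establish a pairing. A RefSeq sequence was matched to 1679 listed names. mm10 and GRCm38 are 1 assembly. Hairpin context was read from GENCODE for the 72 hairpins with both arm sequences in RefSeq.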

Additional observations from a re-analysis of the deposited data

How the results depend on the processing

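The count of hairpins with changed arm balance was 0 under every alternative run (pseudocount, filter, scaling, replicate block, variance trend and each heart left out), and the smallest limma adjusted p ran from 0.0842 without sham heart 2 to 0.650 with a mean of at least 10 RPM, where 41 hairpins were tested and the 4 hairpins described here were not kept. The count of names with changed level, 0, was 1 without a filter, 4 with the replicate block, 2 in DESeq2 and 0 in edgeR on recovered reads, both added after seeing the data, and 0 to 1 with each heart left out; none of these calls was 1 of the 8 arms. With the replicate block the 4 ratio differences are the same and 0 hairpins passed (smallest limma adjusted p 0.221).

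The 4 ratio differences kept their sign under every alternative that gave a value. With a heart left out the sign could not turn, because the groups did not overlap in any of the 4 ratios. Leaving out each heart gave 0.62 to 0.87 for miR-872, 0.59 to 0.84 for miR-664, -0.66 to -0.42 for miR-700 and 0.52 to 0.77 for miR-5615. With a pseudocount of 0.1 RPM they were 0.94, 0.86, -0.81 and 1.23 in the same order, against the smaller values given above for 10 RPM, so the size depends on the pseudocount. The log2 difference of miR-664-3p ran from -0.33 to 0.073 with each heart left out and changed sign without I/R heart 2 (0.028) and without sham heart 2 (0.073); the cause was not tested. Depth limits all of this, with 3 to 45 reads per library in the scarcer arms.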
